A study of Homo sapiens with 15 samples.

Results

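PROX1, TFAP2A, TFAP2B, PTF1A, ONECUT1, ONECUT2, GAD1, SLC32A1, CALB1 and CALB2 are 10 genes that mark amacrine and horizontal cells, the interneurons of the inner and outer retina. They were taken by symbol, without any threshold on their values, and all 10 were found among the 19684 genes measured. The study followed poly(A) RNA from human induced pluripotent stem cells through retinal organoids to cultured Müller glia, with 3 libraries in each of 5 groups. The hiPSC group held undifferentiated BC1-GFP cells, a single human iPSC line with a GFP reporter, grown in mTeSR1 on Matrigel. The D70-RO and D150-RO groups held the neural retina layers of BC1-GFP retinal organoids at differentiation days 70 and 150, with several organoids pooled in each experiment. The P1 iMGC and P5 iMGC groups held adherent cells grown out of dissociated D150 neural retina in DMEM with fetal bovine serum on Matrigel, and collected on the fifth day of passage 1 or passage 5. The iMGCs were therefore selected by survival and growth on plastic, and all groups share 1 genetic background and the GFP reporter.

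Amacrine and horizontal cells arise from retinal progenitors that switch on FOXN4 and then PTF1A, a basic helix-loop-helix factor that is needed for both fates. ONECUT1 and ONECUT2 act with this step and PROX1, TFAP2A and TFAP2B follow as the cells are specified, horizontal cells keeping PROX1 and the ONECUT factors and amacrine cells the TFAP2 factors. Most amacrine cells release GABA or glycine, for which GAD1 makes GABA and SLC32A1 loads both transmitters into vesicles, while CALB1 and CALB2 encode the calcium-binding proteins calbindin and calretinin. None of these genes is restricted to these cells, since PROX1 is also found in other retinal and lens cells, the TFAP2 factors in neural crest and skin, the ONECUT factors in ganglion cells and cones, and calretinin in ganglion cells.

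Each level below is an FPKM value, in which the authors divided a gene's fragments by its transcript length and by the mapped fragments of the library, and is given in the order of replicates 1, 2 and 3. Each fold change comes instead from the authors' expected counts, which are RSEM's estimates of the reads per gene, by the quasi-likelihood test of edgeR, with each p adjusted after Benjamini and Hochberg over all genes tested. A gene was tested where it reached 1 FPKM in at least 3 of the libraries compared, and was called at an adjusted p below 0.05 together with a change of at least 2-fold. Library totals ran from 11349600 to 20398755 counts, and D70-RO replicate 2 had the lowest total. The number of independent experiments is 3 per group by the sample records but 2 for hiPSCs and ROs by the series record, so p-values may measure only the spread between these samples. Batches at more than 1 company are mentioned there too, with no list of the libraries in each, and where batch and group coincide they cannot be told apart. The labels matched their markers only in part. The 5 pluripotency genes POU5F1, NANOG, LIN28A, DPPA4 and TDGF1 summed to between 3161 and 3344 FPKM in hiPSCs and to at most 8.96 in every other library. The 4 neural retina genes RAX, SIX6, CRX and RCVRN summed to between 328.7 and 552.7 FPKM in ROs and to at most 0.95 in iMGCs. The Müller glia genes went both ways in iMGCs. VIM, which the study also names as a progenitor gene, averaged 2160 and 2858 FPKM at P1 and P5 against 1065 at D150. APOE averaged 37.2 and 34.5 against 13.6. GLUL fell from 100.2 at D150 to 13.4 and 14.6, SOX9 from 42.6 to 5.21 and 3.59, and SLC1A3 from 28.0 to 0.373 and 1.19. RLBP1, a defining marker of mature Müller glia, was at 0 in all 3 P1 libraries.

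The start sites of paralogous members are shown because the TFAP2 pair moved together across the groups and the ONECUT pair did not. RefSeq windows of 300 bases, from 250 before to 50 after a transcript start, were at hand for 6 of the 10 members on GRCh38.p14. Each window was searched on both strands for CAGCTG, an E-box of the kind PTF1A binds, for TGGGAA, the core letters of RBPJ, which is PTF1A's partner, for ATTGAT, the core of ONECUT sites, and for GCCNNNGGC, the TFAP2 consensus. Capitals mark the matches, and the gene's own strand is written 5′ to 3′. TFAP2A is shown at chr6:10419610-10419909 on the minus strand, TFAP2B at chr6:50818621-50818920 on the plus strand, ONECUT1 at chr15:52790287-52790586 on the minus strand and ONECUT2 at chr18:57435124-57435423 on the plus strand.
TFAP2A: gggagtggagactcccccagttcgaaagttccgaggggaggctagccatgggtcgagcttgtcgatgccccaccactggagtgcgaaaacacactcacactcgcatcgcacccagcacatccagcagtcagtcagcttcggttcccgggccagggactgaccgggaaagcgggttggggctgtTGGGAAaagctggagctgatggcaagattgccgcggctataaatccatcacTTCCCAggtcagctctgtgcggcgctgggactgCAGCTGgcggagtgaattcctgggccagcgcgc
TFAP2B: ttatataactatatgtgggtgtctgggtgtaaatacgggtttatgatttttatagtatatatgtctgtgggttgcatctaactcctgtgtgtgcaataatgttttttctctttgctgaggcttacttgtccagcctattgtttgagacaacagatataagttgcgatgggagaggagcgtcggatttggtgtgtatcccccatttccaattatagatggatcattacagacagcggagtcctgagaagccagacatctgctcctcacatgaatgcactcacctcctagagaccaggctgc
ONECUT1: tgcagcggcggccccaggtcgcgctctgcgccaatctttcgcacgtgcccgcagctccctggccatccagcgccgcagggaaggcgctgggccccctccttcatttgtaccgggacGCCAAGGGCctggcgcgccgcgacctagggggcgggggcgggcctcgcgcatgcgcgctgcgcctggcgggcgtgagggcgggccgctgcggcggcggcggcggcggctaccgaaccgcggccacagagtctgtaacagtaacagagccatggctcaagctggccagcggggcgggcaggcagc
ONECUT2: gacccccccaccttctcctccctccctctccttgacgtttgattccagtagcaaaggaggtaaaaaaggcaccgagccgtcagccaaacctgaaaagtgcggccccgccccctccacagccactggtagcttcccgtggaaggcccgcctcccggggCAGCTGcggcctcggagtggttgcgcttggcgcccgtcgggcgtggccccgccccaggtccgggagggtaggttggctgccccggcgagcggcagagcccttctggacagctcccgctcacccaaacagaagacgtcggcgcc

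The TFAP2A window held CAGCTG at position 18 after the start, TGGGAA at position -67 and its reverse complement TTCCCA at -16, counted from 1 at the first transcribed base and from -1 just before it. The ONECUT2 window held CAGCTG at -93, and the ONECUT1 window held GCCAAGGGC, a match to GCCNNNGGC, at -134. No match overlapped another. Such matches are common, because CAGCTG occurs in 17.9% of 35116 windows of this length, TGGGAA in 24% and GCCNNNGGC in 23.2%. ATTGAT occurs in 6.26% of windows and in none of those of the members. The window of TFAP2B, that of the downstream TFAP2A start and those of GAD1 and SLC32A1 held none of the 4 motifs, which says only that these letters are not in these windows. The paralogous windows differed in composition, with 61.7% G or C at the upstream TFAP2A start and 43% at TFAP2B, where 16.8% of all windows had less.

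**Figure D1:**
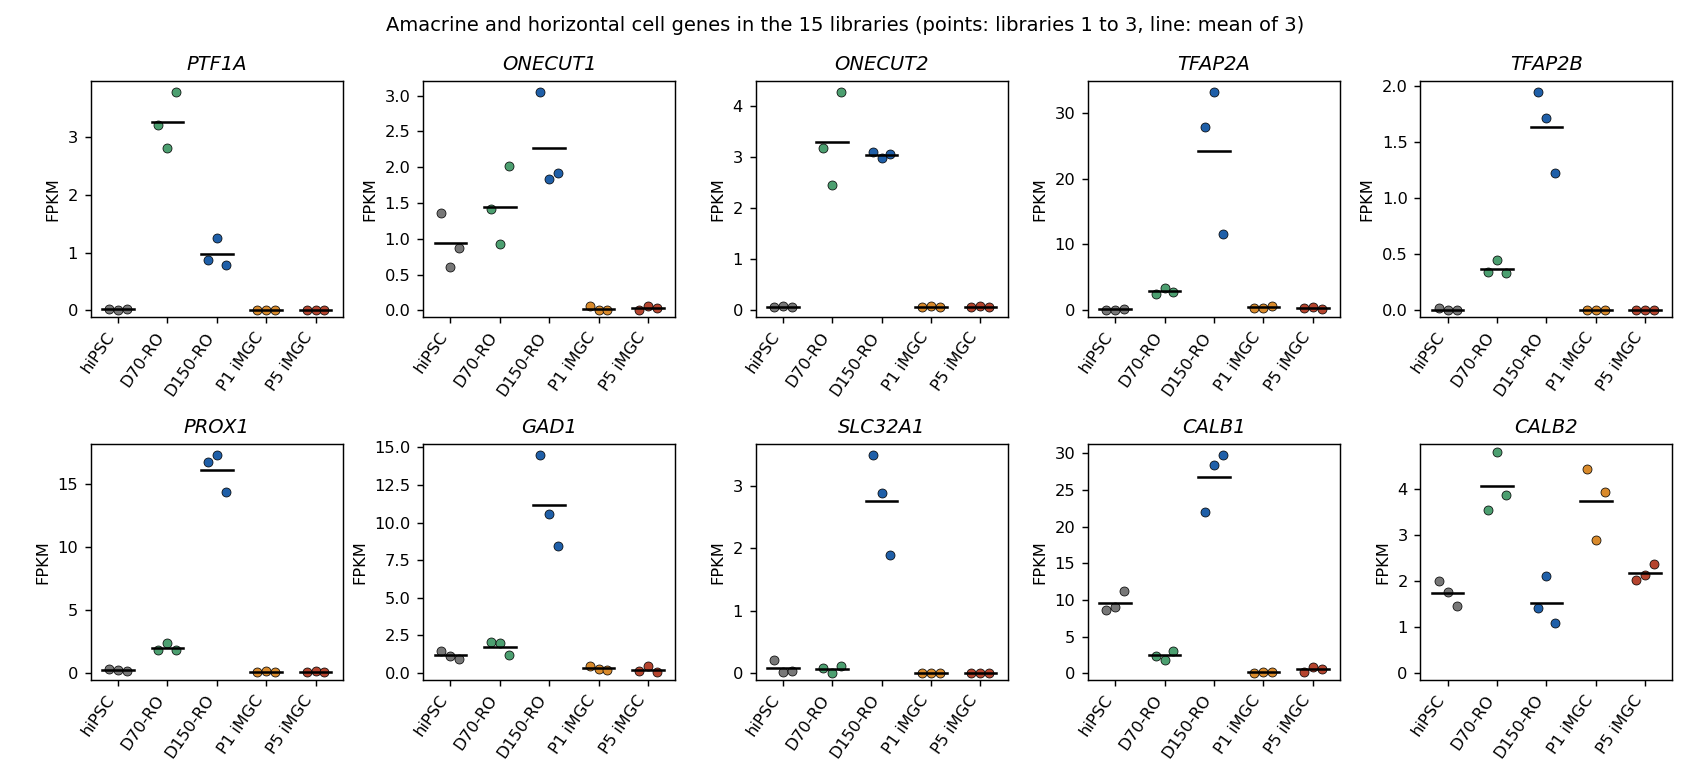
FPKM of each of the 10 genes (vertical axis, its own linear scale in each panel) in the 3 libraries of each of the 5 groups (horizontal axis), where points are libraries and lines are means of 3. PTF1A stands highest in the D70-ROs, 6 genes stand highest in the D150-ROs without overlap with any other group, and CALB2 alone stays above 1 FPKM in every iMGC library.

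PTF1A (ENSG00000168267, chromosome 10, 23192327 to 23194252), the earliest of the determinants, was a gene of the D70-ROs. Its levels there were 3.21, 2.81 and 3.78 FPKM, and at D150 they were 0.88, 1.25 and 0.79. The D70 and D150 libraries did not overlap, and the fall was −2.12 ± 0.25 on the log2 scale of counts (SE, adjusted p = 7.53e-05, edgeR). In hiPSCs it was at 0.03, 0 and 0.03 FPKM, which is 2 counts over the group, against 221 counts at D70, a log2 ratio of 6.91 with a 95% counting interval from 5.04 to 9.96. No count fell on PTF1A in any iMGC library. At D150 the gene itself rested on 58 counts, so it was at least 12.5-fold lower at P1 and at least 12.1-fold lower at P5, with a floor of 3 counts over the group. All such intervals and floors cover counting error only. FOXN4, which acts just upstream of PTF1A, followed the same course, at 14.93 to 18.56 FPKM at D70 and 2.76 to 3.84 at D150 (log2 fold change −2.54 ± 0.13, adjusted p = 7.82e-07). PTF1A also acts in the hindbrain and spinal cord, and the 7 genes of that lineage (LBX1, PAX8, SKOR1, SKOR2, GBX2, HOXA2 and HOXB3) summed to 1.12 to 6.60 FPKM at D70 and 3.45 to 3.97 at D150. Of these PAX8 alone ran from 0.78 to 6.33 FPKM at D70, and GBX2 went from 1 count at D70 to 129 at D150. In iMGCs the 7 genes summed to 9.99 to 12.38 FPKM at P1 and 18.3 to 21.98 at P5, where PAX8 averaged 10.8 and 20.1.

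ONECUT1 (ENSG00000169856, chromosome 15, 52756989 to 52791078, minus strand) and ONECUT2 (ENSG00000119547, chromosome 18, 57435685 to 57491297) encode CUT homeodomain factors of early retinal neurons. ONECUT1 was at 1.36, 0.61 and 0.87 FPKM in hiPSCs, 1.41, 0.93 and 2.01 at D70, and 3.05, 1.83 and 1.92 at D150. The means were in rising order, but neighbouring groups overlapped. Neither step was called, at a log2 fold change of 0.58 ± 0.33 for D70 against hiPSC (adjusted p = 0.132, 95% interval −0.15 to 1.31) and 0.33 ± 0.31 for D150 against D70 (adjusted p = 0.358, −0.37 to 1.03). D150-ROs and hiPSCs did not overlap and differed by 0.91 ± 0.28 on the log2 scale (adjusted p = 0.0088), which is under the 2-fold limit. It was called without hiPSC replicate 1 (1.15), without D150-RO replicate 2 (1.03) or without D150-RO replicate 3 (1.01).

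ONECUT2, in contrast, was close to the floor in hiPSCs, at 0.07, 0.08 and 0.07 FPKM. It stood at 3.18, 2.46 and 4.28 FPKM at D70 and at 3.10, 2.98 and 3.06 at D150. The rise to D70 was 5.37 ± 0.24 on the log2 scale (adjusted p = 8.07e-09), the D70 and D150 libraries overlapped, and the difference between them was not called (−0.34 ± 0.16, adjusted p = 0.0891, 95% interval −0.72 to 0.03). Its count and FPKM implied a transcript of 16118 to 16141 bases in ROs, by far the longest among the members. When the trend of the fold changes on transcript length was removed, D150 against D70 became −1.74 (adjusted p = 2.78e-05), a call. In iMGCs ONECUT2 returned to the hiPSC level, at 0.06, 0.08 and 0.06 FPKM at P1 and 0.07, 0.09 and 0.07 at P5. It was lower than in D150-ROs by a log2 fold change of −4.84 ± 0.13 at P1 (adjusted p = 8.6e-15) and −4.65 ± 0.13 at P5 (adjusted p = 4.26e-15). ONECUT1 had 1 count over the P1 libraries and 3 over the P5 libraries, against 214 at D150. The log2 ratios to D150 were −7.12 (95% counting interval −12.43 to −4.62) and −5.48 (−7.77 to −3.91). The third paralog ONECUT3 stayed under 1 FPKM in every library, reaching 0.6 at most at D70 and 0.56 at D150, and was not tested.

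TFAP2A (ENSG00000137203, chromosome 6, 10393186 to 10419659, minus strand) and TFAP2B (ENSG00000008196, chromosome 6, 50818723 to 50847613) encode AP-2 factors of amacrine and horizontal precursors. TFAP2A was at 0.09, 0.08 and 0.28 FPKM in hiPSCs, 2.5, 3.40 and 2.77 at D70, and 27.80, 33.14 and 11.58 at D150. None of the 3 groups overlapped with another, and replicate 3 of the D150-ROs stood at 38.0% of the mean of the other D150 libraries. Both steps were called, at 4.07 ± 0.31 for D70 against hiPSC (adjusted p = 4.83e-07) and 3.17 ± 0.30 for D150 against D70 (adjusted p = 1.96e-05). Without D150-RO replicate 3 the second step was 3.45 ± 0.16 (adjusted p = 4.16e-06). TFAP2B was at 0.02, 0 and 0 FPKM in hiPSCs, 0.34, 0.45 and 0.33 at D70, and 1.95, 1.72 and 1.23 at D150. Its 3 groups did not overlap either. D150 against D70 was 2.18 ± 0.26 on the log2 scale (adjusted p = 6.85e-05), while D70 against hiPSC was below the level for a test, at 87 counts against 2 (log2 ratio 5.56, 95% counting interval 3.67 to 8.63).

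In iMGCs the AP-2 genes parted in level. TFAP2A was still counted, at 0.32, 0.40 and 0.73 FPKM at P1 and 0.30, 0.54 and 0.17 at P5, above the hiPSC libraries in all but 1 of the 6. Against D150 it was lower by a log2 fold change of −5.22 ± 0.36 at P1 (adjusted p = 1.46e-09) and −5.27 ± 0.35 at P5 (adjusted p = 4.81e-10). TFAP2B had no count in any of the 6 iMGC libraries, against 442 at D150, and was at least 95.6-fold lower at P1 and at least 92.1-fold lower at P5. Of the other AP-2 genes, TFAP2E followed TFAP2B in ROs, at 0.10 to 0.44 FPKM at D70 and 3.60 to 6.45 at D150 (log2 fold change 3.79 ± 0.43, adjusted p = 5.28e-05). TFAP2C was a gene of the hiPSCs, at 2.99 to 4.12 FPKM against 0.28 to 0.43 at D70 (−3.45 ± 0.24, adjusted p = 2.47e-07), and TFAP2D reached 0.68 FPKM at most. Genes of other tissues that use AP-2 factors did not share this course. The 6 surface ectoderm genes TP63, KRT5, KRT14, KRT15, GRHL3 and EPCAM summed to 1.47 to 2.17 FPKM at D70 and 0.75 to 1.13 at D150. The 4 neural crest genes SOX10, FOXD3, ERBB3 and TWIST1 summed to 1.71 to 2.30 FPKM at D70 and 0.90 to 1.80 at D150, with the defining genes SOX10 and FOXD3 at means of 0.0733 and 0.02 at D150.

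PROX1 (ENSG00000117707, chromosome 1, 213983181 to 214041502), a homeodomain factor kept by mature horizontal cells and by some amacrine and bipolar cells, rose at both steps. It was at 0.30, 0.22 and 0.16 FPKM in hiPSCs, 1.81, 2.42 and 1.81 at D70, and 16.80, 17.37 and 14.37 at D150. The groups were far apart, with log2 fold changes of 3.13 ± 0.22 for D70 against hiPSC (adjusted p = 1.95e-07) and 2.96 ± 0.11 for D150 against D70 (adjusted p = 1.48e-07). In iMGCs it was at 0.08, 0.18 and 0.09 FPKM at P1 and 0.06, 0.18 and 0.10 at P5, where the lowest hiPSC library stood at 0.16. Against D150 this was −6.80 ± 0.12 at P1 (adjusted p = 4.28e-17) and −6.91 ± 0.14 at P5 (adjusted p = 7.78e-17). PROX1 and TFAP2A were picked by the study on these samples as amacrine and horizontal cell genes for the iMGC comparison, so their fall is not independent evidence of its direction. The paralog PROX2 stayed at or under 0.51 FPKM. Lens and lymphatic cells also use PROX1. The 6 lens genes CRYAA, CRYBB1, CRYBA1, CRYGS, MIP and BFSP1 summed to 7.34 to 7.76 FPKM in hiPSCs, 37.89 to 67.58 at D70 and 4.10 to 8.97 at D150. This sum rose to D70 as PROX1 did, and fell to D150 while PROX1 rose further. The part of lens cells in the PROX1 result was not tested. The 5 lymphatic endothelial genes summed to at most 0.25 at D150. The 6 bipolar cell genes VSX1, GRM6, CA10, TRPM1, CABP5 and PRKCA went the same way as PROX1, from 20.51 to 21.44 FPKM at D70 to 237.5 to 279.6 at D150. Beside 16.6% of all genes tested, all 5 of these that were tested were called higher. Among them GRM6 and CA10, under 1 FPKM in every D70 library, passed the filter through the D150-ROs alone and had to be higher. The part of bipolar cells in the PROX1 result was not tested.

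Genes on the opposite strand overlap PROX1, TFAP2A and GAD1 in GENCODE 29 (PROX1-AS1, AC011700.1 and AL606537.1, TFAP2A-AS1 and TFAP2A-AS2, and AC007405.2). None of these is among the genes measured, and the strand setting of the counting is not given in the sources used here, so reads from such pairs cannot be told apart. In these bulk libraries, fewer cells of a type and less RNA per cell cannot be told apart either.

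GAD1 (ENSG00000128683, chromosome 2, 170813213 to 170861151), which makes GABA from glutamate, was present at every stage and rose late. It was at 1.46, 1.11 and 0.95 FPKM in hiPSCs, 2.08, 1.98 and 1.20 at D70, and 14.51, 10.54 and 8.43 at D150. The D150 libraries stood above all others, with a log2 fold change of 2.66 ± 0.24 against D70 (adjusted p = 1.55e-05). D70 against hiPSC depended on the unit. The FPKM of these groups overlapped, and limma on log2(FPKM + 1) gave 0.33 (adjusted p = 0.0898), while edgeR on counts gave 1.26 ± 0.24 (adjusted p = 0.000674). FPKM divides by transcript length, and that length was not the same in these groups. The count and FPKM of GAD1 implied a transcript of 1430 to 2064 bases in hiPSCs, 2389 to 3600 at D70 and 3269 to 3480 at D150. GENCODE 29 lists GAD1 transcripts of 1252 bases (GAD1-203) and of 3604 bases (GAD1-202), and the implied lengths moved from between them to near the longer one. In hiPSCs the gene rested on 34 to 42 counts per library, which limits the precision of its length there.

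**Figure D2:**
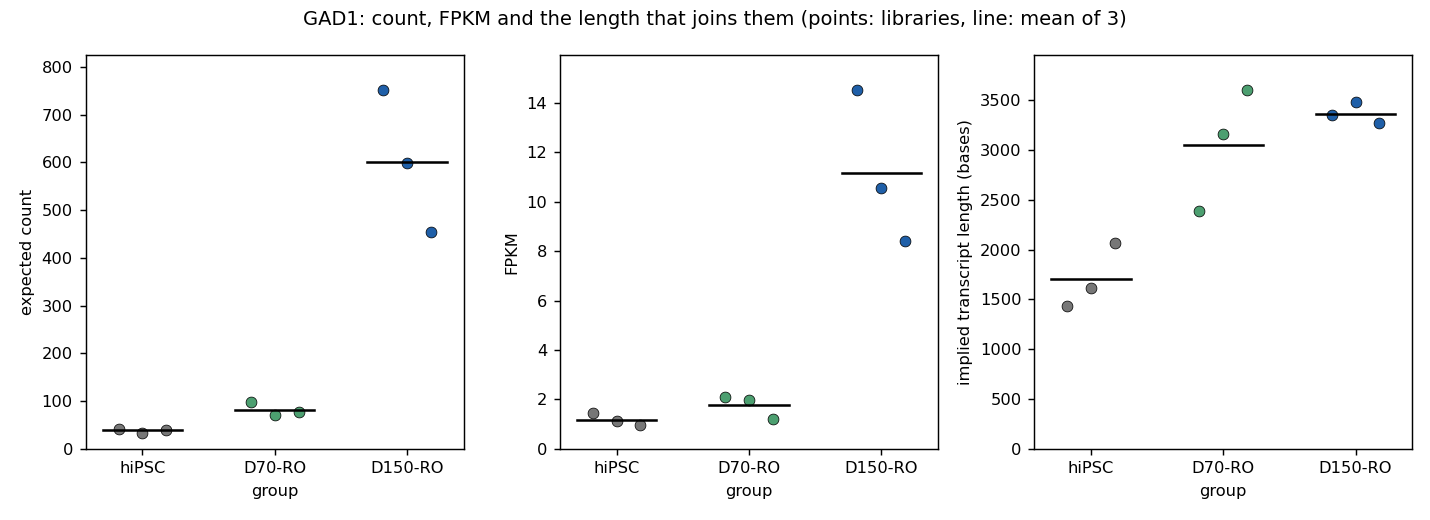
Expected count, FPKM and implied transcript length in bases of GAD1 in the 9 hiPSC and RO libraries (points, with lines for means of 3). Counts of the D70-ROs stand above those of the hiPSCs without overlap, FPKM overlaps, and the implied length is at most 2064 in hiPSCs and at least 3269 at D150.

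SLC32A1 (ENSG00000101438, chromosome 20, 38724462 to 38729372), the vesicular transporter of GABA and glycine, appeared only at D150. It was at 0.21, 0.02 and 0.04 FPKM in hiPSCs, 0.08, 0 and 0.11 at D70, and 3.50, 2.88 and 1.89 at D150. The hiPSC and D70 libraries overlapped near 0, at 14 and 9 counts over the groups, and all D150 libraries stood above them. D150 against D70 was 5.02 ± 0.49 on the log2 scale (adjusted p = 2.32e-05). In iMGCs both genes were near or at 0. SLC32A1 had no count in any iMGC library, at least 73.6-fold lower than D150 at P1 and at least 70.8-fold lower at P5. GAD1 was at 0.45, 0.27 and 0.24 FPKM at P1 and 0.13, 0.47 and 0.09 at P5, below every hiPSC library, with log2 fold changes against D150 of −5.14 ± 0.27 (adjusted p = 4.93e-11) and −4.89 ± 0.35 (adjusted p = 1.4e-09).

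Of 7 further genes of GABA and glycine release and uptake, 5 were tested between D150-ROs and D70-ROs. Of these 1 was higher and 1 was lower, where 16.6% of all genes tested were called higher and 16.7% lower. The GABA transporter SLC6A11, found mostly in glia, rose with SLC32A1. It went from 0.09 to 0.20 FPKM at D70 to 5.46 to 6.43 at D150 (log2 fold change 5.14 ± 0.22, adjusted p = 3.06e-07). SLC6A11 passed the filter here through the D150-ROs alone and had to be higher. ABAT, which breaks GABA down, was lower at D150 by a log2 fold change of −1.10 ± 0.10 (adjusted p = 1.72e-05). GAD2, the second GABA-making enzyme, was at 1.18, 2.51 and 0.89 FPKM at D70 and 2.69, 3.19 and 2.19 at D150, overlapping (0.62 ± 0.36, adjusted p = 0.143, 95% interval −0.19 to 1.44). All 5 tested were higher at D150 than in hiPSCs, beside 29.8% of all genes tested. GAD2, at 0.10 to 0.13 FPKM in hiPSCs, passed that filter through the D150-ROs alone and had to be higher. All 5 were lower at P1 and at P5 than at D150, beside 24.1% and 23.9% of all genes tested. GAD2 was at least 164.2-fold lower at P1. SLC6A11 and the other genes without counts in iMGCs passed the filter through the D150-ROs alone and had to differ. GABA neurons of the forebrain share GAD1, SLC32A1 and CALB2. The 7 forebrain genes DLX1, DLX2, DLX5, DLX6, GSX2, LHX6 and NKX2-1 summed to 3.66 to 5.40 FPKM at D70 and 1.31 to 1.95 at D150, where DLX6 and NKX2-1 were at 0. Both that were tested were called lower, beside 16.7% of all genes tested. DLX2, under 1 FPKM in every D150 library, passed the filter through the D70-ROs alone and had to be lower.

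CALB1 (ENSG00000104327, chromosome 8, 90058608 to 90095475, minus strand), calbindin, fell and then rose. It was at 8.58, 9.07 and 11.17 FPKM in hiPSCs, 2.38, 1.81 and 3.09 at D70, and 22.04, 28.38 and 29.84 at D150. No group overlapped with another, in the order D150, hiPSC, D70. The fall from hiPSCs to D70 was −1.88 ± 0.24 on the log2 scale (adjusted p = 2.55e-05), the rise from D70 to D150 was 3.14 ± 0.18 (adjusted p = 1.2e-06), and D150 stood above hiPSCs by 1.27 ± 0.16 (adjusted p = 1.08e-05). In iMGCs it was at 0.05, 0.10 and 0.14 FPKM at P1 and 0.22, 0.82 and 0.55 at P5. Both passages were far below D150, at −7.76 ± 0.22 for P1 (adjusted p = 2.26e-14) and −6.28 ± 0.20 for P5 (adjusted p = 3.41e-14). The P5 libraries stood above the P1 libraries without overlap, at 22 counts against 8, a level that was not tested. Without the filter edgeR gave 1.48 ± 0.76 (adjusted p = 0.155).

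CALB2 (ENSG00000172137, chromosome 16, 71358713 to 71390438), calretinin, was the 1 member called higher in iMGCs than in D150-ROs, and in the ROs it was highest at D70. It was at 2.01, 1.77 and 1.47 FPKM in hiPSCs, 3.56, 4.81 and 3.87 at D70, and 1.41, 2.12 and 1.08 at D150. D70 stood above both neighbours, with log2 fold changes of 1.03 ± 0.24 against hiPSCs (adjusted p = 0.00247) and −1.49 ± 0.29 for D150 against D70 (adjusted p = 0.00158). The rise to D70 was just past 2-fold, and without D70-RO replicate 2 it was 0.85 and not called. D150-ROs and hiPSCs overlapped (−0.46 ± 0.27, adjusted p = 0.126, 95% interval −1.04 to 0.13). In iMGCs CALB2 was at 4.44, 2.89 and 3.94 FPKM at P1 and 2.03, 2.14 and 2.37 at P5. P1 was above D150 without overlap, by 1.80 ± 0.23 (adjusted p = 2.52e-06). P5 overlapped with D150 in FPKM and was above it by 1.05 ± 0.26 on counts (adjusted p = 0.00126), a call that was lost without D150-RO replicate 3 (0.83), under upper-quartile scaling (0.95) and by limma on log2(FPKM + 1) (0.35). P5 was below P1 by −0.73 ± 0.18 (adjusted p = 0.00333), less than the 2-fold limit. Ganglion cells also make calretinin. The 8 ganglion cell genes ATOH7, POU4F1, POU4F2, RBPMS, SNCG, ELAVL4, NEFL and GAP43 summed to 226.3 to 280.2 FPKM at D70 and 34.59 to 44.95 at D150. Beside 16.7% of all genes tested, all 8 of these were called lower, in the same direction as CALB2. Among them POU4F1, POU4F2, SNCG and ELAVL4, under 1 FPKM in every D150 library, passed the filter through the D70-ROs alone and had to be lower. The part of ganglion cells in the CALB2 result was not tested.

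**Figure D3:**
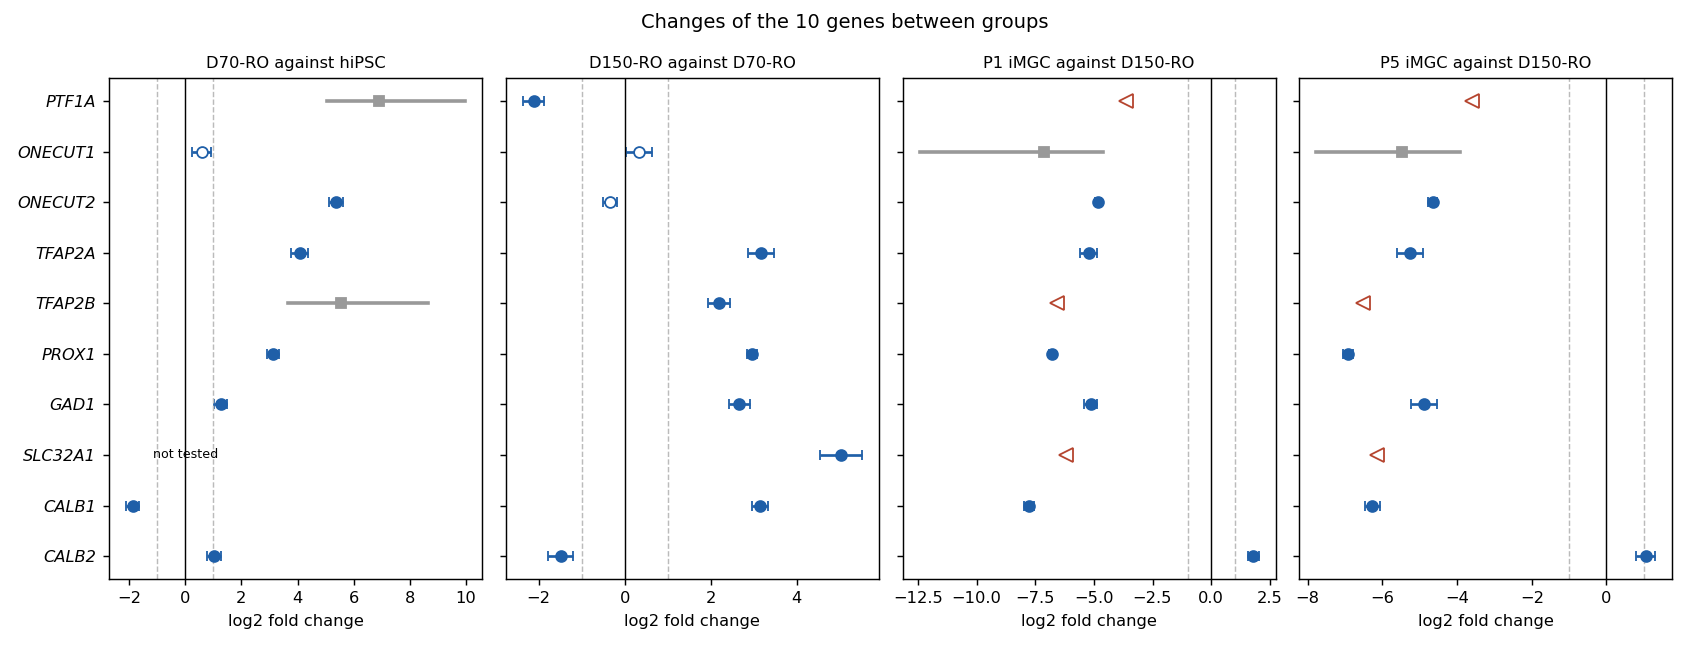
Log2 fold change (horizontal axis, its own scale in each panel) of the 10 genes in 4 comparisons. Circles with bars are edgeR estimates with their SE (filled where called), grey squares are count ratios with 95% counting intervals where a group had 1 to 3 counts, and open triangles are bounds for genes with no count in the iMGCs, whose true change is at or to the left of the triangle. CALB2 is the only gene to the right of 0 in the iMGC panels.

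Set side by side, D70 against hiPSC asks which of these genes were on by day 70. Of the 10 members 8 were tested, 6 were higher and 1, CALB1, was lower, while 43.5% of the 12954 genes tested were called in either direction, 22.5% higher and 21.1% lower. The libraries of the groups did not overlap for 6 of the 8 tested, where this held for 75.5% of all genes. TFAP2B and SLC32A1 were below the filter, and members near 0 in hiPSCs passed it through the D70-ROs alone. D150 against D70 asks what was gained later. All 10 were tested, 6 were higher (PROX1, TFAP2A, TFAP2B, GAD1, SLC32A1 and CALB1) and PTF1A and CALB2 were lower, where 33.3% of 12855 genes were called, 16.6% higher and 16.7% lower. The same 8 did not overlap between the groups, as 77.2% of all genes did not. TFAP2B and SLC32A1, under 1 FPKM in every D70 library, passed the filter through the D150-ROs alone and had to be higher. D150 against hiPSC had 9 members tested, 7 higher and 0 lower, where 58.8% of 13344 genes were called, 29.8% higher and 29.0% lower. Of the 9 tested, 8 did not overlap, where 87.4% of all genes did not. PROX1, TFAP2A, TFAP2B, ONECUT2 and SLC32A1 were under 1 FPKM in every hiPSC library. They passed that filter through the D150-ROs alone and had to be higher, so their calls add nothing to their levels. PTF1A was below the filter there, at 58 counts against 2 (log2 ratio 4.79, 95% counting interval 2.87 to 7.87). The comparisons of the stages share libraries and are not independent of each other.

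P1 against D150 and P5 against D150, which share the D150-RO libraries, ask what the cultured cells kept of these genes. At each passage 9 members were tested, 8 were lower and CALB2 was higher. Among all genes 44.1% of 12896 were called at P1, 20.0% higher and 24.1% lower, and 44.6% of 12933 at P5, 20.8% higher and 23.9% lower. The groups did not overlap for 9 of 9 members at P1 and 8 of 9 at P5, where this held for 87.9% and 88.5% of all genes. Members that are near 0 in iMGCs passed the filter through the D150-ROs alone and had to differ, so these counts add nothing to the levels above. As a share of the D150 mean, the iMGC means were 0.721% at P1 and 0.70% at P5 for PROX1, 2.00% and 1.39% for TFAP2A, 2.87% and 2.06% for GAD1 and 0.361% and 1.98% for CALB1. P5 against P1 had 1 member tested, CALB2, and 0 called by edgeR, DESeq2 or limma, with 1 at an unadjusted p under 0.05 by each of these tools, where 2.92% of 11366 genes were called, 1.94% higher and 0.977% lower. Its libraries did not overlap between passages, as those of 39.5% of genes did not. The other 9 members were at or under 0.82 FPKM in every iMGC library.

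Within the D150-ROs, levels per length ran from CALB1 at 26.8 ± 4.15 FPKM (SD, n = 3) and TFAP2A at 24.2 ± 11.2 to PROX1 at 16.2 ± 1.59 and GAD1 at 11.2 ± 3.09, neighbours overlapping in each case. GAD1 stood above the next gene without overlap. The others followed at 3.05 ± 0.0611 for ONECUT2, 2.76 ± 0.812 for SLC32A1, 2.27 ± 0.68 for ONECUT1, 1.63 ± 0.368 for TFAP2B, 1.54 ± 0.531 for CALB2 and 0.973 ± 0.244 for PTF1A, neighbours overlapping throughout. The spread had a pattern. Of 9 members that averaged at least 1 FPKM, 6 were lowest in replicate 3, where 29.8% of all 12640 genes at that level were lowest. The median member stood at 0.673 of the other libraries there and the median gene at 1.00. TFAP2A, SLC32A1 and GAD1 were at 38.0%, 59.2% and 67.3% of the mean of the other libraries, while ONECUT2 was at 100.7% and CALB1 at 118.4%. TFAP2A had 1235 and 1184 counts in replicates 1 and 2 and 598 in replicate 3. Its implied length was 2876 and 2187 bases against 3134 in replicate 3, so its FPKM dip does not rest on counts alone. Of 19 listed amacrine and horizontal factors at 1 FPKM or more, 10 were also lowest there, among them LHX9 at 9.11 FPKM against 19.80 and 15.98. The direction and call of every member in D150 against D70 were kept without that library.

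**Figure D4:**
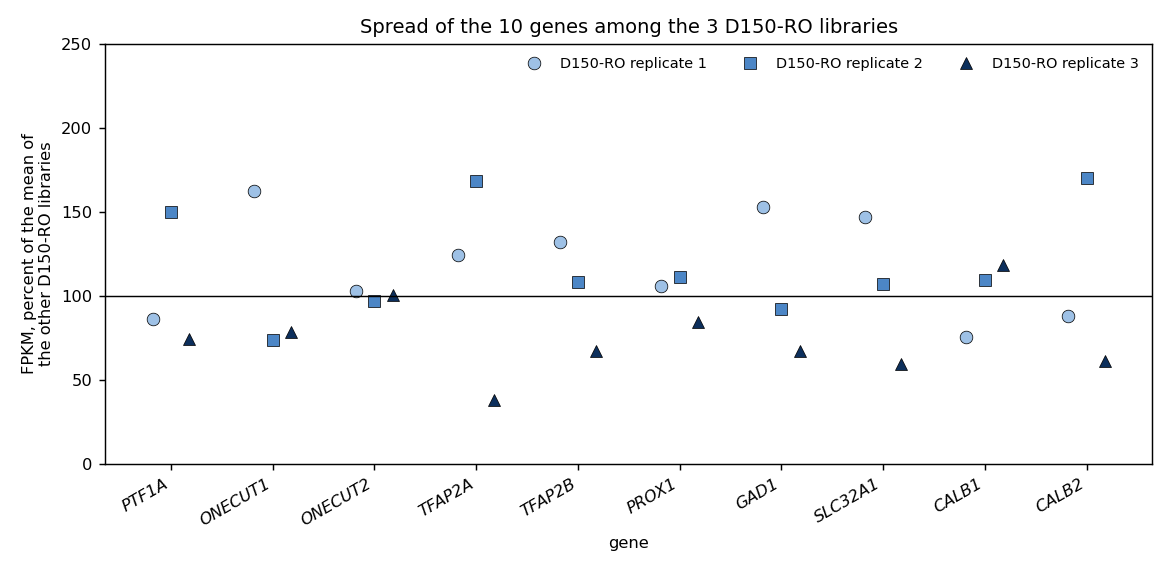
FPKM of each of the 10 genes in each D150-RO library as a percentage of the mean of the other D150-RO libraries (vertical axis, 100 marks no difference). Replicate 3 is lowest for TFAP2A, TFAP2B, PROX1, GAD1, SLC32A1, CALB2 and PTF1A, and highest for CALB1.

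The wider programme of the same cells was read from 22 further transcription factors of amacrine and horizontal cells. At D70 against hiPSC 17 were tested, 16 were higher and SALL3 was lower. Of all genes tested, 22.5% were called higher and 21.1% lower. The median log2 fold change of the factors was 6.36 beside 0.02 over all genes tested. Factors near 0 in hiPSCs passed the filter through the D70-ROs alone and had to be higher, so this count and median add nothing to their levels. BHLHE22, ISL1 and PAX6 were among the larger rises, at 8.06 ± 0.25 (adjusted p = 8.36e-10), 8.05 ± 0.33 (adjusted p = 4.47e-09) and 7.54 ± 0.17 (adjusted p = 1.68e-10). BARHL2 and PRDM13, amacrine factors with 2 and 1 counts over the hiPSC libraries, had 567 and 211 at D70, log2 ratios of 8.27 (95% counting interval 6.41 to 11.32) and 7.84 (5.35 to 13.15). From D70 to D150 the list divided. Of 19 tested 8 were higher and 7 were lower, where 16.6% of all genes tested were called higher and 16.7% lower. Tested factors under 1 FPKM throughout a stage, among them SALL3 and EBF1, passed the filter through the other stage alone and had to differ. The median was 0.06 beside −0.01 over all genes. EBF3 (−3.96 ± 0.27, adjusted p = 2.9e-06), ISL1 (−3.55 ± 0.24, adjusted p = 2.63e-06) and EBF1 (−3.16 ± 0.23, adjusted p = 4.07e-06), which ganglion cells also use, fell as PTF1A and FOXN4 did. SALL3, a factor of horizontal cells and cones that stood at 9.48 to 12.96 FPKM in hiPSCs, rose from 0.07 to 0.20 FPKM to 3.09 to 3.49 (4.59 ± 0.32, adjusted p = 3.32e-06). LHX9 rose with TFAP2A, from 2.24 to 3.44 FPKM to 9.11 to 19.80 (1.96 ± 0.26, adjusted p = 1.34e-04).

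In iMGCs 17 of these factors were tested and all 17 were called lower at both passages, where 24.1% of all genes tested at P1 and 23.9% at P5 were called lower. Factors at or near 0 in iMGCs passed the filter through the D150-ROs alone and had to be lower, so this count adds nothing to their levels. EBF1, below the filter here, stood at 0.93, 0.91 and 0.87 FPKM at P1, above 0.68, 0.63 and 0.80 at D150 without overlap, and at 0.42, 0.46 and 0.25 at P5. At P1, NEUROD4 was at least 6299-fold, NEUROD1 at least 4987-fold and FOXN4 at least 115.7-fold lower, each without a count, and 11 of the 22 were at 0 in every library of each passage. Of those that kept a level, PAX6 and MEIS2 were chosen for mention after their values were seen. PAX6 stayed at 28.82 to 33.23 FPKM at P1 and 41.39 to 45.83 at P5 (−1.69 ± 0.09 and −1.17 ± 0.08 against D150, adjusted p = 2.79e-11 and 1.21e-09), and MEIS2 at 8.53 to 10.3 and 6.55 to 9.85.

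**Figure D5:**
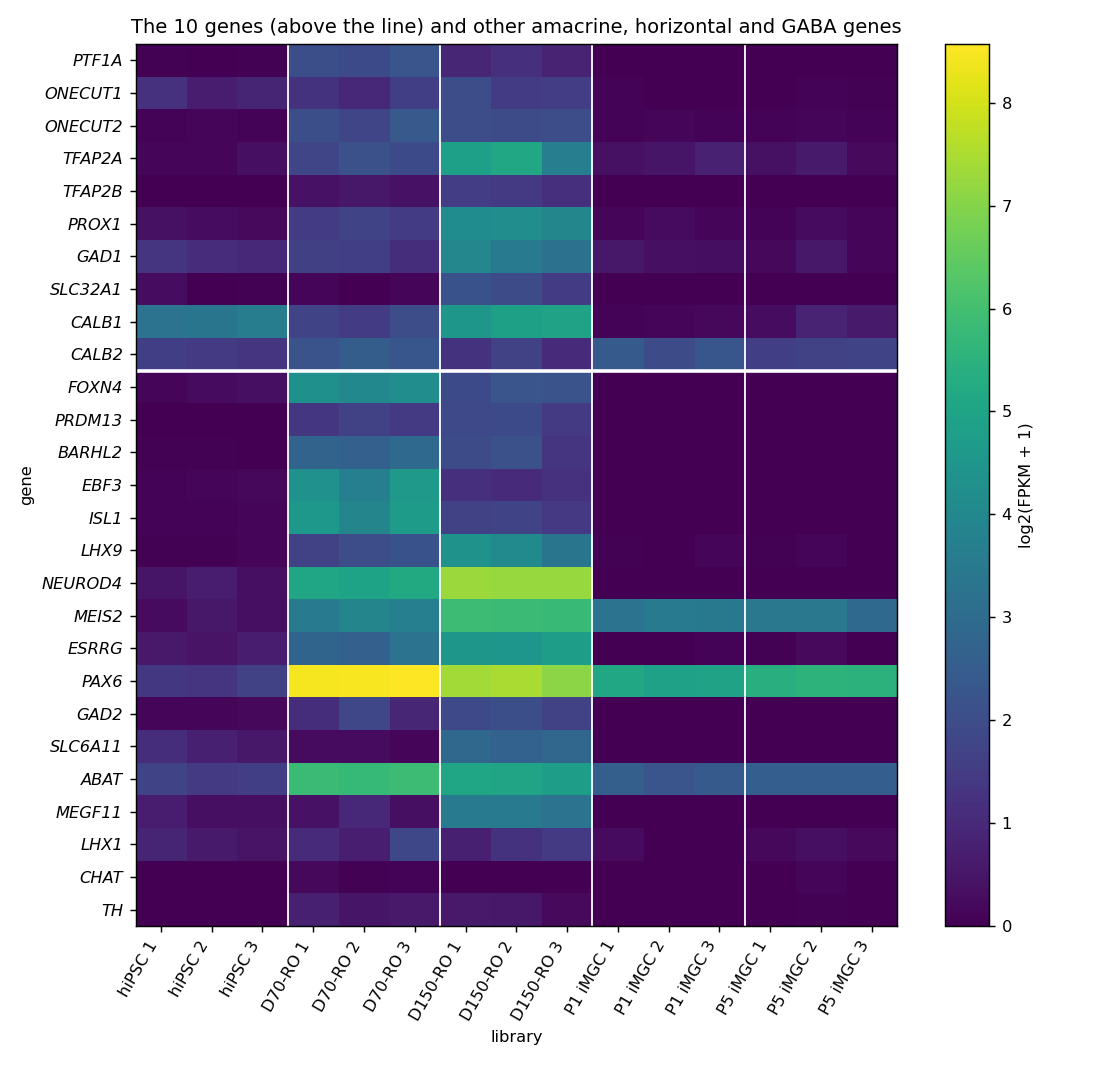
Colour shows log2(FPKM + 1) of the 10 genes (above the white line) and of 17 other genes of amacrine and horizontal cells and of GABA handling (rows) in the 15 libraries (columns). FOXN4, EBF3 and ISL1 are brightest at D70 with PTF1A, LHX9 and MEGF11 at D150 with TFAP2A and PROX1, and PAX6, MEIS2, ABAT and CALB2 are the genes shown that stay above 1 FPKM in every iMGC library.

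Genes of mature function were uneven. Of 8 horizontal cell genes 4 were tested between D150 and D70, where MEGF11, a receptor that spaces horizontal cells, rose from 0.28 to 0.99 FPKM to 8.57 to 10.77 (4.64 ± 0.24, adjusted p = 7.82e-07). The neurofilament genes NEFL (−3.62 ± 0.26, adjusted p = 3.68e-06) and NEFM (−2.93 ± 0.11, adjusted p = 1.34e-07), shared with ganglion cells, fell. Of 15 genes of other amacrine transmitters and peptides 1 was tested between D150 and D70. This was SLC18A2, the vesicular monoamine transporter, which fell from 4.78 to 9.38 FPKM to 0.39 to 0.80 (−3.86 ± 0.30, adjusted p = 6.2e-06). CHAT, the marker of starburst amacrine cells, was at 0 in all D150 libraries and TH, the marker of dopaminergic amacrine cells, at 0.16 to 0.51 FPKM. Others of the list went the other way without a test. Mean NPY was 0.313 FPKM at D70 and 1.08 at D150, and mean CARTPT was 0.0967 and 0.55. Of 8 calcium-binding proteins of the inner retina 5 were tested, CABP5, which bipolar cells also use, rose (3.80 ± 0.15, adjusted p = 1.64e-07) and NECAB2 fell (−2.82 ± 0.16, adjusted p = 9.63e-07). At P1 against D150 NECAB1 was the 1 gene of this list called higher (2.47 ± 0.24, adjusted p = 8.79e-08), at 1.02 to 1.56 FPKM. Of all genes tested there, 20.0% were called higher. NECAB1, under 1 FPKM in every D150 library, passed the filter through the P1 libraries alone and had to be higher.

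The genes whose pattern was most like each member were sought by Pearson's r of log2(FPKM + 1) over the 15 libraries, among 13915 genes. The 15 libraries fall into 5 groups, so r mainly reflects group means, and it is given as a description. Most like PTF1A were CRYAA2 (r = 0.996), FOXN4 (0.994) and TBX5 (0.994), where CRYAA2 is a near copy of the lens gene CRYAA whose reads cannot be assigned with certainty. TFAP2A was most like TFAP2B (0.990), LHX9 (0.986) and NUDT16 (0.984), and SLC32A1 was most like C11orf87 (0.995), GABRR1 (0.993) and SLC4A10 (0.992). PROX1 was most like ABCA4 (0.998), DSCAML1 (0.997) and RCVRN (0.997), and GAD1 was most like PDE6B (0.987), LHX4 (0.986) and HRK (0.985), of which ABCA4, RCVRN and PDE6B are photoreceptor genes that also stood highest at D150. TFAP2B was most like ATP2B2 (0.994), MRLN (0.993) and PROX1 (0.993). ONECUT1 was most like SP4 (0.982), RAB3C (0.981) and WSCD2 (0.981), and ONECUT2 was most like CLVS2 (0.997), GJD2 (0.996) and ATL1 (0.996), so neither was closest to its paralog (0.821 between them). CALB1 was most like MATK (0.991), TMEM74 (0.985) and DROSHA (0.984). CALB2 had no close match, its highest being ST7 (0.892), PPM1M (0.856) and SYNPO2 (0.846), and its r with PROX1 was −0.34.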

How the data were processed

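RNA-seq of 15 poly(A) libraries was analysed as deposited. The members, the related gene lists and the motifs were chosen with earlier results of these data known. Alignment by the authors was with HISAT2, transcript assembly with StringTie and quantification with RSEM, and software versions, genome build and annotation are not given in the sources used here. The deposited values are expected counts, which the authors did not normalize, and FPKM, in which the authors divided by transcript length and library size. Between 8.21% and 10.1% of the expected counts per library were not whole and were rounded. Of 3 tables, 2 were used, and 12 columns of the third were not used because its iMGC columns name no passage.

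The main test was the quasi-likelihood test of edgeR 4.0.16 (R 4.3.3) with TMM factors, fitted to 2 groups at a time with no covariate. A gene entered it when 3 or more of those libraries reached 1 FPKM, and genes were called at an adjusted p under 0.05 and at least 2-fold. Alternatives were DESeq2 1.42.0, limma 3.58.1 on log2(FPKM + 1) and log2(FPKM + 0.1), upper-quartile scaling, no filter, a test against 2-fold, 1 fit of all 15 libraries, all 6 iMGC libraries as 1 group, the replicate number as a block, removal of a length trend, and each library left out in turn with the same genes tested. Scripts were tested on simulated data. Positions and overlapping genes are from GENCODE 29 (GRCh38), which holds all 19684 identifiers, and symbols came from a names table for 19604 of them. Promoter windows are RefSeq's. Named genes were the 10 members, the paralogs of members, in each list and comparison up to 4 of the called genes with the largest fold changes, and the 3 genes most like each member. FOXN4, LHX9, PRDM13, PAX6, MEIS2, CHAT, TH, NPY, CARTPT and single markers of other cell types were named outside this rule, after their values were seen. A few genes of the lists are not reported here, and the counts and sums leave them out.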

Additional observations from a re-analysis of the deposited data

How the results depend on the processing

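Of 754 recomputed values 727 kept their direction and their side of the threshold. CALB2 between D150-ROs and hiPSCs, not called, turned from −0.46 to 0.37 with the length trend removed and to 0.34 with the replicate block and the length trend removed. No other direction turned. The calls that were lost or gained concerned GAD1 and CALB2 (D70 against hiPSC), TFAP2B, ONECUT2 and CALB2 (D150 against D70), ONECUT1 (D150 against hiPSC) and CALB2 (P1 and P5 against D150). TFAP2B between D150 and D70 was 0.93 by limma on log2(FPKM + 1), under the 2-fold limit, a scale that understates low genes. The number of members called stayed within 1.5 times the main number under every alternative, with 5 to 8 for D70 against hiPSC, 7 to 8 for D150 against D70, 7 to 8 for D150 against hiPSC, 8 to 10 at P1, 8 to 10 at P5 and 0 between passages. With 1 library left out in turn these numbers were 6 to 7, 8, 7 to 8, 9, 8 to 9 and 0. The replicate numbers share no stated source. Deviations of equally numbered libraries from their group means correlated between −0.08 and 0.35, and in 0 of 6 comparisons were all pairs over 0.1. Of 18 such pairs 7 correlated best with their own number. With 3 libraries per group this cannot show whether equally numbered libraries share an origin. The replicate block left 7, 8, 7, 9, 9 and 0 members called. Upper-quartile scaling moved the median of all genes to 0.12 for D70 against hiPSC, −0.11 for D150 against D70, −0.16 for each passage against D150, from 0.02, −0.01, −0.05 and −0.05, and turned no member's direction. Depth limits PTF1A, TFAP2B and SLC32A1 in iMGCs, which had no count, and CALB1 there, with 8 and 22 counts.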
